A study of Gallus gallus with 6 samples.

Results

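The regions described here are sites of histone H3 lysine 4 (H3K4) methylation that lay inside the introns of genes, beyond the first intron and away from any transcription start. They were selected from the regions that the authors deposited for 3 pairwise comparisons of chicken cell populations. A region was kept when it lay on chromosomes 1 to 10, was under 1000 bp wide, lay more than 1000 bp from the closest annotated start and had its centre in an intron with a number other than 1. This gave 375 of 4801 regions in the comparison of embryonic stem cells with primordial germ cells, 379 of 5840 in that of embryonic stem cells with spermatogonial stem cells, and 671 of 4823 in that of the germ cell populations. Over the 3 tables the members had 1078 distinct positions out of 10677, which merged to 1066 separate regions where positions overlapped. The authors' annotation marks an intron that ends a gene as the last intron without a number, so last introns were not members. No enrichment or ratio entered this choice, although a region had to be called in at least 1 population to be listed. Its width also comes from the call, and the width limit left out 8, 15 and 0 otherwise eligible regions in the 3 tables.

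Methylation of H3K4 is laid down by methyltransferases of the SET1 and MLL families. Trimethylated H3K4 is known for marking the starts of active genes, while mono- and dimethylated H3K4 also mark enhancers, many of which lie in introns. Introns beyond the first can likewise hold start sites of shorter transcripts, as well as genes of microRNAs and of small nucleolar RNAs. Which of these a region marks was not measured here.

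Embryonic stem cells (ESC) were taken from the embryo disk of stage X blastoderms and cultured for 24 h. Primordial germ cells (PGC), the embryonic precursors of gametes, were isolated from genital ridges, which the protocol puts at 4.5 d and the stage label at 72 h (stage 27). Spermatogonial stem cells (SSC), the stem cells of the male germ line, were isolated from the testes of embryos, which the protocol puts at 18.5 d and the stage label at 18 d. Both germ cell populations were purified by differential culture, and no sort by a marker is described, so somatic cells of the gonad may remain. The antibody bound di- and trimethylated H3K4 per the labels, although the title names the dimethylated form alone.

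Each population had 1 immunoprecipitated (IP) library and 1 input library, so all comparisons below are between libraries, with no p-value. Library totals ran from 19.15 to 26.03 M reads. Enrichment is the RPM of the IP library over the RPM of the input library of the same population, where RPM is the read count plus 1 per M reads. A log2 ratio compares the enrichments of 2 populations, and its 95% interval, like those of enrichments, covers the counting error of reads only. Intervals of shares and medians are taken over regions, as if these were independent. No interval given here covers the spread between replicates of a population. A region is listed only where the enrichment of each population of the pair exceeds 1. Fewer cells that carry the mark and less of the mark per cell cannot be told apart in such libraries.

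Against PGC, few of the later intron regions were ESC regions. The authors called 62 of the 375 in ESC (16.5%, 95% interval 12.9 to 20.7) and 313 in PGC (83.5%, 79.3 to 87.1), with 0 called in both, a count that allows up to 0.979%. Of all regions listed for this pair, the authors called 57.4% in ESC, 42.2% in PGC and 0.333% in both. First intron regions chosen with the same limits on chromosome, width and distance were called in ESC in 42.7% of 211 cases (35.9 to 49.6). Intergenic regions chosen likewise were called in ESC in 34.5% of 1195 cases (31.8 to 37.2), and last intron regions in 21.1% of 57 (11.4 to 33.9). The ESC share in later introns thus lay below those of the first intron and intergenic regions with intervals that did not overlap, while its interval overlapped that of the last intron regions.

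The later intron regions called in ESC were fewer but stronger. Their 62 regions together held 2314 IP over 291 input reads in ESC and 575 IP over 481 input reads in PGC, a pooled enrichment of 6.10 (5.40 to 6.89) in ESC against 1.48 (1.31 to 1.67) in PGC. The 313 regions called in PGC held 5059 IP over 1920 input reads in PGC and 2885 IP over 1388 input reads in ESC, a pooled enrichment of 3.25 (3.09 to 3.43) in PGC against 1.59 (1.49 to 1.70) in ESC. A call selects regions that are high in the calling library, so these contrasts describe the calls and are no test of them. A call did not always go with the higher enrichment. More enrichment in ESC was found at 21 of the 313 PGC-called members, beside 138 of 2027 PGC-called regions over the whole table. More in PGC was found at 0 of the 62 ESC-called members, beside 68 of 2758. The greater strength of ESC-called regions was not particular to later introns. In their own population, ESC-called and PGC-called regions had pooled enrichments of 5.47 and 3.26 in first introns and of 6.21 and 3.13 in intergenic regions. The median log2 ratio of ESC over PGC was 1.68 at ESC-called and -1.09 at PGC-called regions.

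Counted by size, 48 of the 375 (12.8%, 9.59 to 16.6) had at least 2-fold more enrichment in ESC, beside 48.4% of all listed regions, and 171 (45.6%, 40.5 to 50.8) had at least 2-fold more in PGC, beside 23.5%. Most of these ratios rest on few reads. The interval also excluded no difference for 24 regions toward ESC (6.4%), beside 23.7% of all regions, and for 19 toward PGC (5.07%), beside 2.10%. The median over members was -0.89 (-1.02 to -0.81), while that over all listed regions was 0.90. With ratios centred on that overall median, the split was 6.93% toward ESC and 75.7% toward PGC. With the IP libraries alone it was 12.5% and 51.5%.

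**Figure D1:**
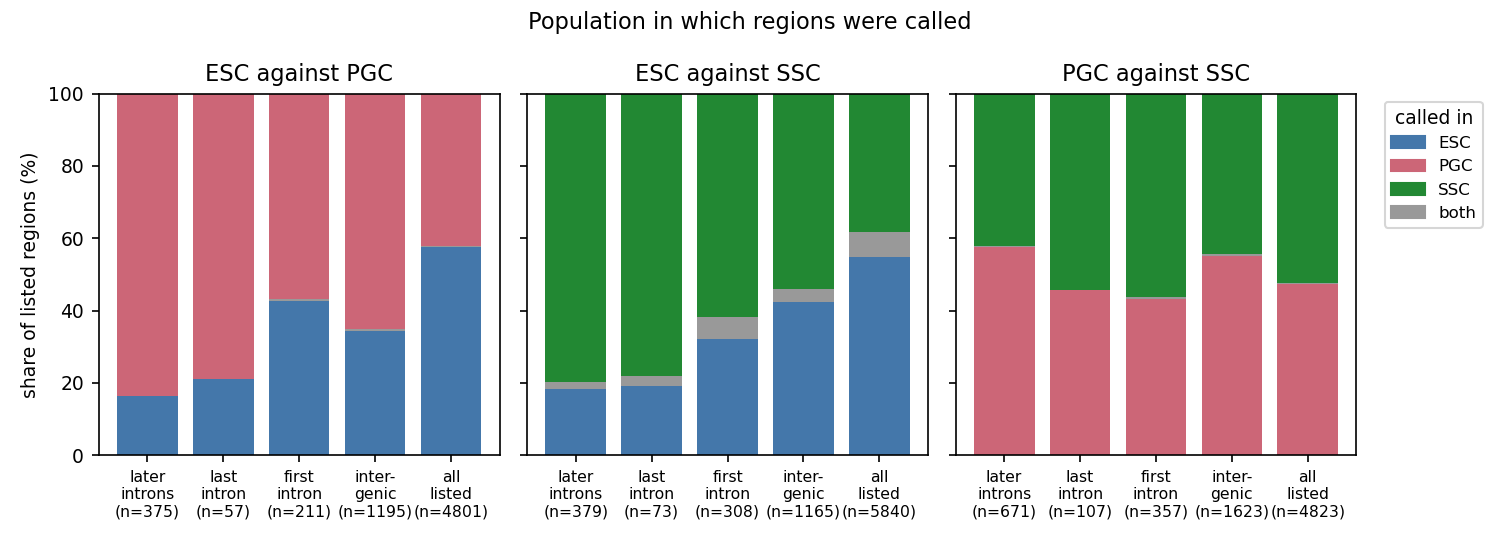
Share of regions (%, stacked bars from 0) called by the authors in each population, for later intron, last intron, first intron and intergenic regions chosen with the same limits on chromosome, width and distance, and for all listed regions, with their numbers below the bars. In the comparisons with ESC the later intron bars have the lowest ESC shares, 16.5% and 18.5%, against 57.4% and 54.9% over all listed regions.

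Against SSC, regions called in ESC were again the minority in later introns. The authors called 70 of the 379 later intron regions in ESC (18.5%, 14.7 to 22.8), 302 in SSC (79.7%, 75.3 to 83.6) and 7 in both. Over the whole table the shares were 54.9% in ESC, 38.3% in SSC and 6.80% in both. First intron regions were called in ESC in 32.1% of 308 cases (27.0 to 37.7) and intergenic regions in 42.3% of 1165 (39.5 to 45.2), both with intervals above that of the later introns. Last intron regions stood at 19.2% of 73 (10.9 to 30.1).

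The ESC-called regions had a pooled enrichment of 5.67 (5.05 to 6.37) in ESC and 2.29 (2.03 to 2.59) in SSC, where a value above 1 in each was needed for listing. SSC-called regions had 4.10 (3.86 to 4.35) in SSC and 1.58 (1.48 to 1.67) in ESC. More enrichment in SSC was found at 8 of the 70 ESC-called members, beside 379 of 3205 ESC-called regions over the whole table. More in ESC was found at 17 of the 302 SSC-called members, beside 128 of 2238. At the SSC-called regions the input libraries differed as well, with 0.783 RPM per kb in SSC and 1.03 in ESC, beside 3.21 and 1.62 in the IP libraries. The part of that input difference in the ratios was not tested, but the ratios without inputs are given below.

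At least 2-fold more enrichment was found in ESC for 43 members (11.4%, beside 35.1% of all regions) and in SSC for 214 (56.5%, 51.3 to 61.5, beside 26.3%). Of the former, 14 had an interval beyond no difference (3.69%, beside 12.0%), and of the latter 44 (11.6%, beside 4.83%). The median log2 ratio of ESC over SSC was -1.19 (-1.28 to -1.03), with 0.31 over all regions. Centring on the latter gave 8.71% toward ESC and 65.7% toward SSC, and the IP libraries alone gave 10.6% and 38.5%.

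Between the germ cell populations, later introns held more PGC than SSC calls. Of 671 regions, 387 were called in PGC (57.7%, 53.8 to 61.5), 282 in SSC (42.0%, 38.3 to 45.9) and 2 in both, where the whole table had 47.3% in PGC, 52.4% in SSC and 0.352% in both. The PGC share was 43.1% (37.9 to 48.5) among 357 first intron regions, with an interval below that of the later introns, and 55.0% (52.6 to 57.5) among 1623 intergenic regions, with an interval that overlapped it. Last intron regions were called in PGC in 45.8% of 107 cases (36.1 to 55.7). PGC-called members had a pooled enrichment of 3.25 (3.10 to 3.40) in PGC and 1.63 (1.54 to 1.72) in SSC, and SSC-called members had 4.10 (3.86 to 4.37) in SSC and 1.47 (1.38 to 1.55) in PGC. At the SSC-called regions the PGC input stood at 1.24 RPM per kb and the SSC input at 0.774, beside 1.82 and 3.18 in the IP libraries. More enrichment in SSC was found at 53 of the 387 PGC-called members, beside 265 of 2279 PGC-called regions over the whole table. More in PGC was found at 9 of the 282 SSC-called members, beside 72 of 2527.

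At least 2-fold more enrichment was found in PGC for 184 members (27.4%, beside 21.2% of all regions) and in SSC for 205 (30.6%, beside 37.8%). The interval excluded no difference for 14 toward PGC (2.09%, beside 1.80%) and 40 toward SSC (5.96%, beside 9.58%). The median log2 ratio of PGC over SSC was 0.07 (-0.10 to 0.32), beside -0.42 over all regions. The split depended on the scale. Centring gave 41.4% toward PGC and 20.7% toward SSC, and the IP libraries alone gave 30.1% and 12.2%, so that PGC led under both of these and SSC led by a small margin under the deposited scale.

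**Figure D2:**
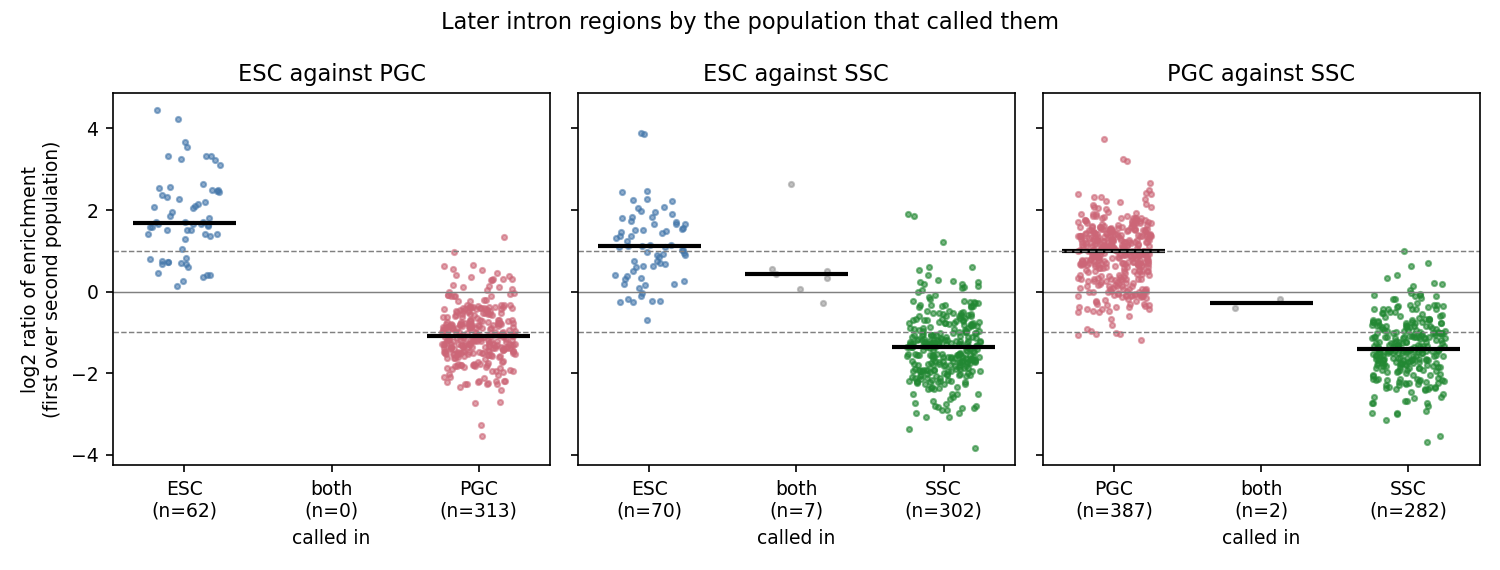
The log2 ratio of enrichment (first over second population) of each later intron region, 1 point per region, by the population in which the authors called it. Black lines are medians, dashed lines mark 2-fold, and the ESC-called medians of 1.68 and 1.11 lie opposite to the PGC-called and SSC-called medians of -1.09 and -1.37 in the tables with ESC.

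Some members were listed at the same position in both tables of the population that called them, which gives their reads in all 6 libraries. There were 44 such regions called in ESC alone, 152 in PGC alone and 147 in SSC alone. Counting those also called in SSC, 48 positions were called in ESC in both of its tables, and the extra ones were left out here. Among those left out was chr1:50051100-50051878, described below, where ESC stood above both others beyond counting error. These subsets had to be enriched above input in all 3 populations to be listed, so they leave out regions that are bare in another population. The calling population had the highest enrichment at 40 of the 44 (90.9%), 123 of the 152 (80.9%) and 132 of the 147 (89.8%), beside 87.0%, 82.1% and 90.8% of all listed regions called likewise. Its enrichment was at least 2-fold above both of the others at 24 (54.5%), 50 (32.9%) and 77 (52.4%), beside 54.3%, 31.1% and 52.4%. Both intervals excluded no difference at 7 (15.9%), 4 (2.63%) and 10 (6.80%), beside 16.2%, 1.50% and 6.73%. The later intron regions were thus near the shares over all regions in each of these counts.

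The populations that did not make the call were also compared at these regions. The ratio between them was not used for the call, but regions also called in 1 of them were left out. This comparison is therefore not free of selection. At the ESC-called regions SSC was above PGC, with pooled enrichments of 2.28 (1.96 to 2.66) and 1.47 (1.27 to 1.70) and a median log2 ratio of PGC over SSC of -0.42 (-0.68 to -0.32). SSC was at least 2-fold above PGC at 14 of the 44 regions (31.8%, 18.6 to 47.6), beside 35.8% of all regions called in ESC alone in both tables. PGC was so above SSC at 0, beside 2.94%. The interval of single regions excluded no difference at 2 toward SSC. Over all such ESC-called regions the median was -0.60, so the order of SSC above PGC was not particular to later introns. All regions listed for PGC against SSC, which were selected by calls in either population, had a median of -0.42 too. Whether ratios are centred on that median thus decides the order at the later introns. Their summed reads were 472 IP over 256 input in SSC and 393 over 330 in PGC, so the inputs entered it as well. At the PGC-called regions ESC and SSC had pooled enrichments of 1.53 (1.40 to 1.68) and 1.64 (1.50 to 1.79), with a median log2 ratio of ESC over SSC of -0.08 (-0.20 to -0.01). At the SSC-called regions ESC and PGC stood at 1.62 (1.48 to 1.77) and 1.46 (1.35 to 1.58), with a median log2 ratio of -0.00 (-0.10 to 0.19).

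**Figure D3:**
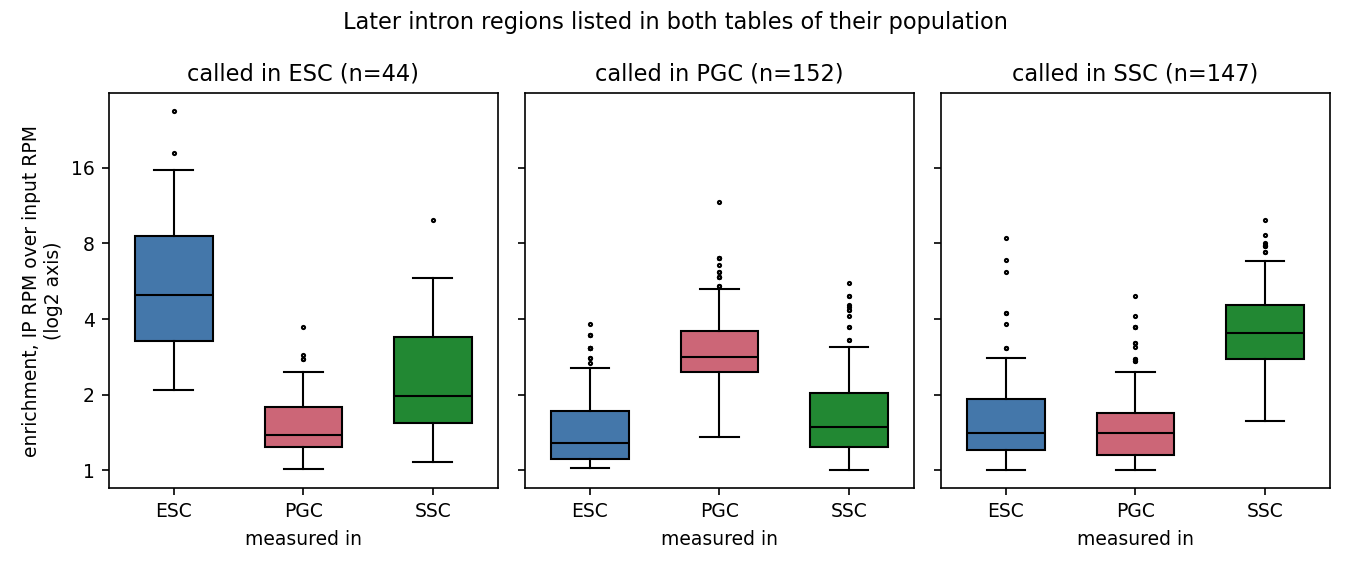
Enrichment (IP RPM over input RPM, log2 axis) in ESC, PGC and SSC at later intron regions listed in both tables of the 1 population that alone called them. Boxes give quartiles and medians over regions, whiskers reach at most 1.5 times the box height and dots lie beyond. The calling population is high by selection. Among the others SSC lies above PGC at the ESC-called regions on this scale without centring, with pooled enrichments of 2.28 and 1.47.

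ESC-called members lay earlier in their genes than the members called in the germ cells. Their median distance from the closest start was 7098 bp in the table against PGC and 4758 bp in that against SSC. PGC-called members lay 27465 and 28863 bp away and SSC-called members 12663.5 and 13798.5 bp, in the 2 tables that each population entered. The order of distances was not particular to later introns. Against PGC, ESC-called and PGC-called regions had medians of 1560 and 8549 bp in first introns and 9129.5 and 31450 bp in intergenic regions. Over all listed regions these were 537 and 17573 bp. Intron 2 held 53.2% and 48.6% of the ESC-called, 26.2% and 23.8% of the PGC-called and 32.1% and 26.6% of the SSC-called members. Intron 10 or later held 6.45% and 12.9%, 28.1% and 24.6%, and 20.9% and 18.8% of them. The highest intron number was 101, in a PGC-called region.

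The share of members called in ESC was also read by intron number. Against PGC it was 28.7% of 115 regions in intron 2 (20.7 to 37.9), 22.2% of 54 in intron 3, 21.2% of 33 in intron 4, 7.41% of 81 in introns 5 to 9 (2.77 to 15.4) and 4.35% of 92 in intron 10 or later (1.20 to 10.8). Against SSC the shares in the same order were 25.4% of 134 (18.3 to 33.6), 23.7% of 59, 15.1% of 53, 8.20% of 61 (2.72 to 18.1) and 12.5% of 72 (5.88 to 22.4). The shares from intron 5 on lay below that of intron 2 with separate intervals against PGC, while against SSC the interval of intron 10 or later overlapped that of intron 2. Intron number and distance go together, so regions within 10 kb of a start were also taken alone. There ESC called 47.2% of 53 regions in intron 2 (33.3 to 61.4) and 18.2% of 55 in intron 3 or later (9.08 to 30.9) against PGC, and 28.9% of 90 (19.8 to 39.4) and 16.7% of 102 (10.02 to 25.3) against SSC, where the intervals overlap. Beyond 10 kb the intervals overlap in both tables, with 12.9% of 62 (5.74 to 23.8) and 9.27% of 205 (5.67 to 14.1) against PGC, and 18.2% of 44 (8.19 to 32.7) and 13.3% of 143 (8.19 to 20.0) against SSC.

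Classes were then compared at matched distances. Between 10 and 50 kb from a start, ESC called 9.15% of 164 later intron regions against PGC (5.21 to 14.6), 25% of 56 first intron regions (14.4 to 38.4) and 34.4% of 448 intergenic regions (30.0 to 39.0). Against SSC the shares at that distance were 14.3% of 119 (8.55 to 21.9), 29.2% of 48 (17.0 to 44.1) and 42.1% of 437 (37.4 to 46.9). The later intron intervals lay below the intergenic ones in both tables and overlapped those of the first introns. Within 10 kb they lay below the intergenic ones as well, at 32.4% (23.7 to 42.1) against 52.7% (47.8 to 57.6) in the table with PGC and 22.4% (16.7 to 29.0) against 48.4% (44.1 to 52.7) in that with SSC. First intron regions within 10 kb stood at 50.7% of 140 against PGC (42.14 to 59.26), an interval that barely cleared the later intron end of 42.09. Against SSC they stood at 32.9% of 243 (27.05 to 39.22), which overlapped that of the later introns. Farther away no difference was resolved. Between 50 and 100 kb the ESC share against PGC was 16.7% of 60 later intron regions (8.29 to 28.5) and 11.9% of 151 intergenic ones (7.22 to 18.2), and against SSC 18.6% (8.39 to 33.4) and 23.7% (15.5 to 33.6). Beyond 100 kb the intervals of both classes overlapped in both tables. These bins were looked at after the calls had been seen.

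**Figure D4:**
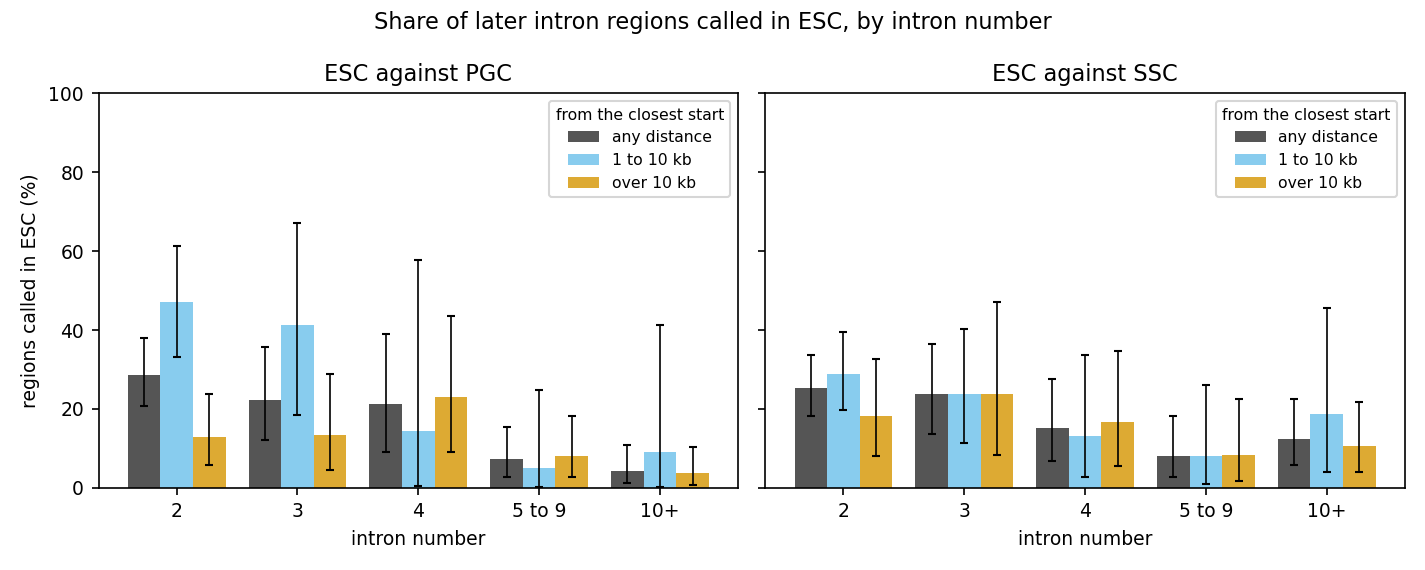
Share of later intron regions (%, bars from 0) called in ESC by the number of the intron, against PGC and against SSC, for all regions and for those within and beyond 10 kb of the closest start. Lines are exact 95% intervals, which are wide in introns 4 and later. Against PGC the share was 28.7% in intron 2 and 4.35% in intron 10 or later.

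Among PGC-called regions against ESC the median log2 ratio lay between -1.20 and -0.98 in all 5 bins of intron number, and at -0.995 within 10 kb of a start against -1.14 beyond 100 kb. Among ESC-called regions against SSC the median was 1.31 in the 34 regions of intron 2, 0.41 in the 5 of introns 5 to 9 and 0.63 in the 9 of intron 10 or later, bins with few regions. Widths differed with the caller too. ESC-called members had a median width of 312.5 bp against PGC, and PGC-called members 220 bp, with 123 of 313 PGC-called and 5 of 62 ESC-called regions at 200 to 210 bp, where 200 bp was the narrowest listed. Over all regions listed for this pair the median widths were 363 bp (ESC-called) and 223 bp (PGC-called), so this contrast was shared. In their own population the members had median IP counts of 29 in ESC, 16 in PGC and, against ESC, 14 in SSC, with median input counts of 4, 6 and 4. Of the members in the tables in the order given above, 90.1%, 87.3% and 89.6% lay wholly in an intron, and 9.33%, 11.1% and 8.64% reached an exon or untranslated region with an edge. The host gene's own start was the closest start for 69.6%, 69.7% and 66.2%. The widest member had 955 bp and the narrowest region outside 1022 bp, while the nearest member lay 1003 bp from a start and the farthest region left out by distance 996 bp. Regions nearer to a start had more ESC calls. Later intron regions left out by it numbered 58, 80 and 24 in the 3 tables, with median log2 ratios of 1.68, 0.74 and -1.001, and 94.8% and 77.5% of them were called in ESC in the tables with ESC. The members within 2000 bp of a start numbered 24, 61 and 47, with medians of 0.76, -1.03 and -0.91 and ESC calls in 70.8% and 31.1%. All members together stood at -0.89, -1.19 and 0.07.

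Single regions are named below by their host gene, with positions as deposited on the build galGal4 and the roles of the genes as they are known in mammals. They were taken as the clearest ratios, the most reads or the members of gene lists, so they show the range and are not typical. Numbers of reads, as IP over input, come first, since 1 to 3 input reads decide several of the ratios.

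Among ESC-called regions, the highest read count lay in an unnamed gene, ENSGALG00000012050. Its intron 4 held a cluster of 4 separate regions within 5.04 kb, 3 of them called in ESC, and the strongest, chr1:50051100-50051878, held 141 IP over 3 input reads in ESC, 12 over 10 in PGC, and 31 over 8 in SSC. The log2 ratio was 4.22 (2.38 to 6.07) against PGC and 2.63 (0.84 to 4.42) against SSC. ESC was thus high in both comparisons, but SSC was called there too, with an enrichment of 4.40 against 1.46 in PGC. A second unnamed gene, ENSGALG00000015850, held 84 IP over 4 input reads in ESC, 9 over 10 in PGC, and 18 over 9 in SSC in intron 2, 1429 bp from its start. Its log2 ratios were 3.54 (1.74 to 5.33) and 2.47 (0.77 to 4.18).

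EIF2B5 encodes the catalytic subunit of the exchange factor for translation initiation factor eIF2. Its intron 2 (chr9:15250369-15250786) held 41 IP over 2 input reads in ESC, 12 over 14 in PGC, and 7 over 4 in SSC. ESC stood above both others, with log2 ratios of 3.33 (1.33 to 5.33) against PGC and 2.44 (0.10 to 4.78) against SSC. By the IP libraries alone the ratio against PGC was 1.33. PIK3C2A, a class II phosphoinositide 3-kinase, held 83 IP over 11 input reads in ESC, 25 over 16 in PGC, and 32 over 23 in SSC in a region of intron 2. Its log2 ratios of 1.51 (0.27 to 2.75) and 1.66 (0.50 to 2.81) were smaller, and both intervals excluded 0.

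LONRF2, a RING finger protein, held 84 IP over 5 input reads in intron 4 in ESC against 6 over 7 in PGC, a log2 ratio of 3.33 (1.44 to 5.22). The IP libraries alone gave 3.24, so the inputs hardly entered this ratio. DGKH, a diacylglycerol kinase, held 34 IP over 0 input reads in intron 2 in ESC and 6 of each in PGC. With a floor of 3 in place of the count plus 1 of the empty input, ESC was 7.25-fold higher. That value takes the other counts as exact, and the interval of the deposited log2 ratio began at 1.20. In SSC the region held 8 IP over 1 input reads, and the interval against SSC (-1.35 to 5.89) included 0. CNTN5, a neuronal contactin, held 85 IP over 16 input reads in intron 3 in ESC and 9 of each in SSC, a log2 ratio of 1.65 (0.18 to 3.12), with a U6 small nuclear RNA gene 3600 bp away as the closest start.

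TCF12, an E-protein transcription factor of the basic helix-loop-helix family, carried a cluster in intron 4 more than 62 kb from its start. The region chr10:6940879-6941484 held 59 IP over 12 input reads in ESC, 14 of each in PGC, and 41 over 20 in SSC. ESC was above PGC by a log2 ratio of 1.52 (0.17 to 2.87) and did not differ from SSC beyond counting error, at 0.52 (-0.63 to 1.67). The authors called it in both ESC and SSC. WDR1, an actin-disassembly factor, also had a region in intron 2 called in both, with 29 IP over 5 input reads in ESC and 20 over 9 in SSC. The other 5 regions called in ESC and SSC lay in genes without a symbol.

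CACHD1, a calcium channel-related protein, had 3 regions in intron 2 within 2.16 kb, of which 2 were called in ESC and 1 in PGC. The first held 23 IP over 0 input reads in ESC and 2 over 1 in PGC, the second 17 over 1 against 4 over 4, and the third 9 over 4 against 17 over 4. The log2 ratios were 2.48 (-0.28 to 5.25) for the second and -1.54 (-3.64 to 0.57) for the third, so the opposite signs of these neighbours lay within counting error of no difference. CACHD1 was singled out after its values were seen.

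PGC-called regions were weaker, and 4 of those seen in all 6 libraries stood above both other populations beyond counting error. THADA, a gene disrupted by rearrangements in thyroid adenomas, had the highest ratio of these in intron 30, 110560 bp from its start (chr3:24375195-24375421). It held 18 IP over 1 input reads in PGC, 7 over 4 in ESC, and 7 of each in SSC, with a log2 ratio of PGC over SSC of 3.25 (0.71 to 5.78) and of ESC over PGC of -3.26 (-5.91 to -0.61). The IP libraries alone gave 1.17 and -1.61, in the same directions. PDXK, the kinase that makes active vitamin B6, was another of the 4, with 22 IP over 7 input reads in intron 7 in PGC, 11 over 8 in ESC, and 8 over 10 in SSC. Its enrichment was 3.55 in PGC, 1.022 in ESC and 1.012 in SSC. The other 2 lay in genes without a symbol.

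NRXN3, a presynaptic adhesion protein, held 22 IP over 5 input reads in intron 8 in PGC and 15 over 11 in ESC, a log2 ratio of ESC over PGC of -2.21 (-3.90 to -0.52). Its closest start was that of the microRNA gene gga-mir-1799, 154757 bp away. FAM168A held 16 IP over 2 input reads in PGC and 6 over 4 in ESC, at -2.70 (-5.13 to -0.28). MED12L, a subunit of the Mediator kinase module, held 15 IP over 0 input reads in PGC and 10 over 4 in ESC. With the floor and the other counts taken as exact it was 3.90-fold higher in PGC, and the interval of its log2 ratio ended at -0.26. Each of these 3 had fewer than 25 IP reads in PGC, and the IP libraries alone gave -0.89, -1.64 and -0.90.

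Against SSC, ARHGAP15, a Rac GTPase-activating protein, held 20 IP over 0 input reads in intron 11 in PGC and 10 over 6 in SSC. With the floor and the other counts taken as exact it was 4.45-fold higher in PGC, and the interval of its log2 ratio began at 0.54. EXOC6B, a subunit of the exocyst that tethers secretory vesicles, held 15 IP over 1 input reads in PGC and 6 over 7 in SSC, a log2 ratio of 3.19 (0.61 to 5.77). MYH15, a myosin heavy chain, held 18 IP over 2 input reads in intron 33 in PGC and 8 over 7 in SSC, at 2.49 (0.26 to 4.72). By the IP libraries alone ARHGAP15 gave 0.85 and EXOC6B 1.11, and the PGC input at these 3 regions held 0 to 2 reads against 6 or 7 in SSC. The PGC-called named region with most reads lay in TACR2, a tachykinin receptor, with 31 IP over 14 input reads in PGC, 12 over 8 in ESC, and 7 over 5 in SSC. Its intervals included 0 in both comparisons, at -1.25 (-2.76 to 0.26) for ESC over PGC and 0.68 (-1.09 to 2.44) for PGC over SSC.

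Among SSC-called regions, 10 stood above both other populations beyond counting error, and NOP58 led them. NOP58 is a core protein of the box C/D small nucleolar ribonucleoproteins, and its region in intron 2 (chr7:11280192-11280620) lay 1285 bp from SNORD70, a small nucleolar RNA gene. It held 31 IP over 4 input reads in SSC, 19 over 10 in ESC, and 15 over 18 in PGC. The log2 ratio was -2.50 (-4.23 to -0.78) for ESC over SSC and -2.93 (-4.59 to -1.26) for PGC over SSC. With the IP libraries alone these were -1.12 and -1.08, more than 1.5 times smaller as folds.

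CHD2, a chromatin remodelling enzyme, had the most reads of the SSC-called members. Its region of 857 bp in intron 2 held 71 IP over 27 input reads in SSC, 46 over 23 in ESC, and 29 over 23 in PGC. The log2 ratios of -1.08 (-2.03 to -0.13) for ESC over SSC and -1.04 (-2.04 to -0.05) for PGC over SSC were small but rested on larger counts than the others. A second CHD2 region held 14 IP over 1 input reads in SSC and 9 over 6 in ESC, at -3.08. FAM45A, EDNRA, TXNDC12 and CNTNAP5 were the other named genes of the 10. EDNRA, an endothelin receptor, held 31 IP over 10 input reads in intron 2 in SSC, 14 over 10 in ESC, and 9 over 10 in PGC, with log2 ratios of SSC over them of 1.78 (0.29 to 3.28) and 1.68 (0.10 to 3.26). EDNRA held the same 10 input reads in every population, so its inputs entered the ratios only through the library totals.

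C21orf91 carried 4 SSC-called regions within 9.33 kb in introns 2 and 3. The strongest, chr1:98714459-98715271, held 58 IP over 21 input reads in SSC and 20 over 15 in ESC, a log2 ratio of ESC over SSC of -1.72 (-2.90 to -0.55). The other 3 lay on the same side, at -0.95, -0.76 and -2.22, with intervals that included 0. MYLIP, an E3 ubiquitin ligase that acts on the low-density lipoprotein receptor, held 42 IP over 10 input reads in SSC and 25 over 12 in ESC, at -1.66 (-3.01 to -0.30). PRKCH, a protein kinase C, held 19 IP over 2 input reads in intron 12 in SSC and 9 over 6 in ESC, at -2.91 (-5.15 to -0.67). PKM, the pyruvate kinase of glycolysis, held 15 IP over 1 input reads in SSC and 8 over 9 in PGC, a log2 ratio of PGC over SSC of -3.15 (-5.64 to -0.67).

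The unnamed gene ENSGALG00000003164 held 4 regions in introns 14 to 16 over 81.3 kb. In intron 14, 3 of them were called in SSC and lay 3376 and 2680 bp from gga-mir-199-2 and 1809 bp from gga-mir-214, microRNA genes inside the host. They held 15 IP over 3 input reads, 16 over 5 and 21 over 7 in SSC, compared with 7 over 3, 9 over 4 and 10 over 7 in ESC. Against PGC, with 8 over 9, 4 over 3 and 9 over 8, the log2 ratios of PGC over SSC were -2.15 (-4.20 to -0.11), -1.18 (-3.51 to 1.14) and -1.31 (-3.06 to 0.44). The 3 regions were on the same side, but the interval excluded 0 for the first alone. The fourth region, in intron 16, was called in PGC with 18 IP over 5 input reads there and 8 over 7 in SSC. The unnamed gene ENSGALG00000016200 had 4 SSC-called regions within 1.92 kb of intron 2, and the widest held 29 IP over 9 input reads in SSC and 18 over 17 in PGC, at -1.51 (-2.90 to -0.12). Its other 3 regions stood at -1.42, -0.09 and -1.225 for PGC over SSC, with intervals that included 0.

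**Figure D5:**
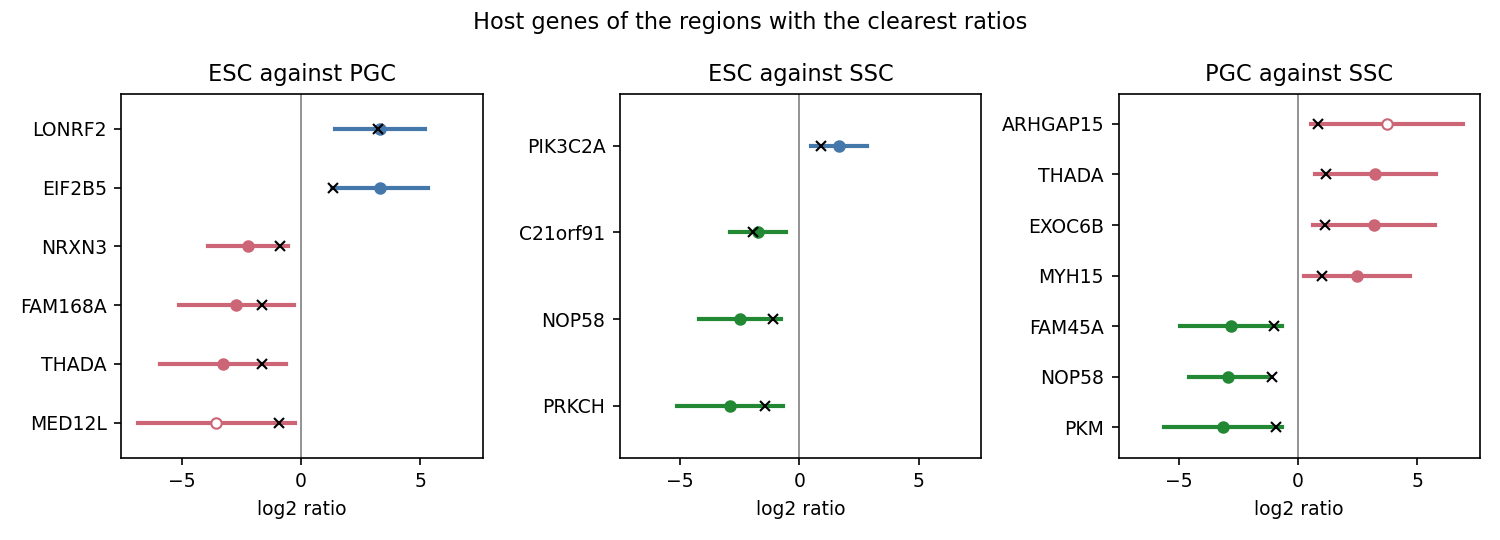
Log2 ratio of enrichment (dots, first over second population) with 95% counting intervals (lines) at the regions with the clearest ratios in named host genes, coloured by the population with more enrichment (blue ESC, red PGC, green SSC). Open dots mark an input of 0 reads, where the ratio depends on the added count, and crosses give the ratio of the IP libraries alone. Every cross lies on the same side of 0 as its dot, and most lie nearer to 0, as for NOP58 at -1.08 against -2.93.

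The members lay in 855 host genes, of which the deposited annotation gives a symbol for 515 (60.2%). Most genes held a single region, with 690 hosts of 1 separate region, 126 of 2, 31 of 3 and 8 of 4. By caller, 410 genes held PGC-called regions alone, 305 SSC-called alone and 55 ESC-called alone, while 68 held calls of PGC and SSC, 8 of ESC and SSC, 4 of ESC and PGC, and 5 of all. The 73 genes with calls in both PGC and SSC were 15.0% of the genes with PGC calls and 18.9% of those with SSC calls. Over the 4194 host genes of all listed regions, 20.9% had PGC calls alone, 20.3% SSC calls alone and 38.4% ESC calls alone, compared with 48.0%, 35.7% and 6.43% for the later introns. There the 244 genes with calls in both PGC and SSC were 19.5% of those with PGC calls and 15.5% of those with SSC calls. Within such genes the sites could be far apart. DMD, the dystrophin gene, held 1 region of each population over 409.2 kb in introns 30 to 48. The median length of host genes whose own start was closest was 43.3 kb for the later introns and 49.0 kb for first intron regions.

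Protein kinase activity was annotated for 6.98% of the 573 host genes with gene ontology terms, compared with 4.63% of the 1793 such host genes over all listed regions. Calcium ion binding stood at 5.06% and 3.40%, and RNA binding at 3.84% and 10.04%. These shares describe the hosts and were not tested.

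Gene lists for developmental pathways were matched to the host genes by symbol. The lists do not hold every gene of their kind, so related hosts outside them are not counted. No share over the hosts of all listed regions was taken, so the counts are not read as few or many. Over all members, 91 distinct positions were called in ESC, 550 in PGC and 446 in SSC. The TGF-beta and BMP pathway had 4 of 31 genes with 8 distinct regions, 3 called in PGC and 5 in SSC. Its region with most reads lay in intron 2 of BMP5, a secreted ligand of the pathway, with 32 IP over 7 input reads in SSC and 16 over 11 in PGC, a log2 ratio of PGC over SSC of -1.54 whose interval ended at -0.00. BMPR1B, a BMP receptor, held 14 IP over 6 input reads in PGC and 7 over 5 in ESC, at -1.37 (-3.37 to 0.63). LTBP1, which stores latent TGF-beta in the matrix, had regions called in PGC and in SSC, and all of those named by the list rule had intervals that included 0. The list's median log2 ratio was -1.48 over 2 regions for ESC over PGC, beside -0.89 for all members, and -0.79 over 3 regions for ESC over SSC, beside -1.19. For PGC over SSC it was -0.44 over 6 regions, beside 0.07.

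The FGF and MAPK pathway had 3 of 26 genes. FGFR2, a fibroblast growth factor receptor, held 13 IP over 1 input reads in intron 13 in SSC and 8 over 9 in PGC, at -2.96 (-5.46 to -0.46) for PGC over SSC, while the IP libraries alone gave -0.72. FGFR3 and MAP3K5 had PGC-called regions with intervals that included 0. MAP3K21 and MAP3K4, outside the list and named after their values were seen, had a region called in ESC and in PGC, respectively. Their log2 ratios of ESC over PGC were 1.71 (-0.22 to 3.63) and 0.55 (-1.39 to 2.49). The Wnt pathway had 2 of 27 genes, both called in PGC against SSC. DAAM1, a formin of planar cell polarity signalling, held 18 IP over 6 input reads in PGC and 6 over 7 in SSC, at 1.63 (-0.29 to 3.56). TCF7L2, a transcription factor of the pathway, held 14 over 7 against 10 over 11, at 1.03 (-0.68 to 2.74). DAAM2, a relative of DAAM1 outside the list, was named after its values were seen. Its ESC-called region in intron 2 held 22 IP over 5 input reads in ESC and 8 over 5 in PGC. The log2 ratio of ESC over PGC there was 0.67 (-1.31 to 2.64). The Notch pathway had 3 of 16 genes with 4 regions, and JAG2, a Notch ligand, held 15 IP over 5 input reads in SSC and 11 over 13 in PGC, at -1.64 (-3.39 to 0.11). In none of the Wnt and Notch regions did the interval exclude 0.

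Developmental transcription factors were hosts in 6 of 42 cases with 13 regions, 2 called in ESC, 4 in PGC and 8 in SSC, where the TCF12 region called in both ESC and SSC counts under each. TEAD1, a partner of the Hippo pathway coactivator YAP, had a PGC-called region in intron 10 with 18 IP over 10 input reads in PGC, 8 over 5 in ESC, and 8 over 10 in SSC, and both of its intervals included 0. GLI2, a transcription factor of Hedgehog signalling, held regions in introns 2 to 12 over 98.1 kb. Chromatin regulators were hosts in 3 of 42 cases, CHD2 as described, HDAC9 and ARID1B. HDAC9, a class II histone deacetylase, held 15 IP over 5 input reads in PGC and 13 over 7 in ESC, and ARID1B, a subunit of the BAF remodelling complex, 18 over 4 in PGC and 5 over 4 in SSC, with intervals that included 0. MLLT10, a chromatin-related gene outside the list, was named after its values were seen. Its ESC-called region in intron 3 held 30 IP over 2 input reads in ESC and 7 over 6 in PGC. The log2 ratio of ESC over PGC there was 2.49 (0.24 to 4.74).

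Synapse and axon guidance genes were hosts in 8 of 35 cases with 13 regions, 3 called in ESC, 7 in PGC and 3 in SSC. SEMA3A, a secreted guidance cue, held 30 IP over 6 input reads in ESC, 11 over 5 in PGC, and 9 of each in SSC, and LRP1B, a lipoprotein receptor-related protein, 45 over 6 in ESC and 8 over 6 in SSC. Their intervals included 0, at 0.46 (-1.38 to 2.30) and 1.46 (-0.27 to 3.19) for SEMA3A and 1.66 (-0.17 to 3.49) for LRP1B. The first of these changed sign when ratios were centred.

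Of the list of 29 collagen and matrix genes, 2 were hosts, with 3 regions called in SSC. The list does not hold every such gene, and COL8A1 and COL4A6, collagens named after their values were seen, had PGC-called regions in intron 2, COL4A6 an SSC-called one as well. For ESC over PGC the log2 ratio at the COL8A1 region was -1.05 (-3.00 to 0.90). The PGC-called COL4A6 regions stood at -0.01 (-2.29 to 2.27) and 0.465 (-1.47 to 2.40), so they were not resolved as higher in PGC. COL12A1, a collagen of fibril surfaces, held 15 IP over 0 input reads in intron 56 in SSC and 8 over 4 in ESC. With the floor and the other counts taken as exact it was 4.78-fold higher in SSC, and the interval of its log2 ratio ended at -0.53. LAMB1, a laminin chain of basement membranes, held 17 IP over 6 input reads in SSC, 13 over 6 in ESC, and 8 over 6 in PGC, with intervals that included 0. Cadherins were hosts in 3 of 25 cases, ion channels in 1 of 21 and cyclic AMP and calcium signalling genes in 4 of 22.

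Genes that define the cell types were also looked up among the hosts. Lists were matched by symbol, so a member of a list among the hosts without a symbol would be missed. The lists of 18 pluripotency genes and of 29 germ cell, piRNA and meiosis genes had 0 hosts in all 3 tables, and 0 of the 8 germ cell markers and 0 of the 5 pluripotency markers had any listed region, members or not. SMC1B, a cohesin subunit of meiosis that was not on the list, held a PGC-called region in intron 10, named after its values were seen, with 12 IP over 5 input reads in PGC, 7 over 5 in ESC, and 5 over 3 in SSC and intervals that included 0. The later introns therefore could not be used to check the labels of the cells. Of the 6 fibroblast markers PDGFRA, a growth factor receptor of mesenchymal and gonadal stromal cells, was the 1 host, with 15 IP over 4 input reads in intron 3 in SSC and 11 over 6 in ESC, a log2 ratio of -1.59 (-3.57 to 0.39). Over all listed regions, members or not, the fibroblast markers COL1A2, LUM and PDGFRA had 8. Of the 5 blood and endothelial markers 0 hosted a member, and TAL1 had 1 listed region. The 8 somatic gonad markers hosted 0 as well, although 6 of them had regions elsewhere in the tables, 19 in all. TIE1, an endothelial receptor, held 11 IP over 6 input reads in intron 2 in PGC, 7 over 5 in ESC, and 7 over 6 in SSC, with intervals that included 0. The part of somatic cells in the SSC-called regions was not tested.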

How the data were processed

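H3K4 methylation was measured by chromatin immunoprecipitation and sequencing in 3 populations with 1 IP and 1 input library each, and samples were grouped by their labels. Per the submitters' processing notes, the tools were BWA, MACS2, FastQC and CASAVA 1.8, on galGal4. Their settings, the counting step and the base of the coordinates are not given in the sources used here. Per the file headers, the deposited tables hold read counts and RPM values per library. The deposited fold enrichment divides the IP RPM by the input RPM, and the deposited log2 fold change compares 2 such ratios. RPM equals the count plus 1 over the library total, which gave totals of 26.03 (ESC IP), 19.96 (ESC input), 20.24 (PGC IP), 24.98 (PGC input), 19.15 (SSC IP) and 23.68 (SSC input) M reads.

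The members and gene lists were chosen with earlier results of these data known. The result of 1 list is not reported here. Repeated rows of a region were collapsed, and a region was a member if any of its rows passed the rule, while the first row alone would have given 374, 378 and 668. Enrichments were recomputed from RPM in Python 3.11.15 with pandas 2.3.3 and scipy 1.17.1. Intervals of log2 ratios came from the delta method on 4 counts plus 1 and cover the counting error of reads only. Those of shares are exact Clopper-Pearson and treat regions as independent. Both are at 95%. For an empty input in the higher population, 3 was put in place of the count plus 1 for a lower fold value, which takes the other counts as exact. Medians of regions have order-statistic intervals. The calculation was tested on simulated counts. Named regions are, per table and direction, up to 6 with the interval farthest from 0, up to 2 per gene list by IP reads, the 3 called regions with most IP reads per population, the genes with most regions (ties included) and those called in 2 populations, and those above both other populations were added after seeing the data. Genes without a symbol were mostly left out. Alternatives were a count of 5 added to the reads, centring on the median, IP alone, a minimum of 10 IP reads, a distance over 5000 bp, the interval rule and an overlap of 50%. Motifs were not searched because no genome was used here.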

Additional observations from a re-analysis of the deposited data

How the results depend on the processing

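No paired analysis was possible because each population had 1 library of each kind, and for the same reason no replicate could be left out. Each of the 3 medians kept its sign under all alternatives run. Of the log2 ratios of 160 named regions, 6 changed sign with the IP libraries alone, 11 with centring and 2 with a count of 5 added, all of them ratios whose interval included 0. Requiring the interval to exclude no difference lowered the shares at 2-fold from 12.8% to 6.4% (ESC) and from 45.6% to 5.07% (PGC) in ESC against PGC, to 3.69% (ESC) and 11.6% (SSC) in ESC against SSC, and to 2.09% (PGC) and 5.96% (SSC) in PGC against SSC. Centring gave 6.93%, 75.7% and a median of -1.79 in ESC against PGC, 65.7% (SSC) and -1.50 in ESC against SSC, and 41.4%, 20.7% and 0.49 in PGC against SSC. The IP libraries alone gave 51.5% (PGC) and -1.03, 38.5% (SSC) and -0.82, and 12.2% (SSC) and 0.56 in the same order. Adding 5 to each count gave 6.07% (ESC) in ESC against SSC, and 14.8% (PGC) and 19.1% (SSC) in PGC against SSC, since it shrinks ratios of low counts. A distance over 5000 bp gave 8.63% (ESC) in ESC against PGC, and 25.7% (SSC) and a median of 0.32 in PGC against SSC. Causes of the other shifts were not tested. A minimum of 10 IP reads and a stricter overlap moved none of these values beyond their intervals. Depth limits single regions: the median standard error of a log2 ratio was 1.04, 1.06 and 1.04, and 19 of the 171 regions with at least 2-fold more enrichment in PGC than in ESC had an interval that excluded no difference. Regions without enrichment in a population are not listed.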
